A study of Homo sapiens with 6 samples.

Results

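The strongest A core of the T47D genome comprised 1324 bins of 100 Kb, chosen by their mean compartment score over the 5 parental libraries as the top 5% of the 26484 autosomal bins with a score in all 6 libraries. T47D, a widely used human breast cancer line, expresses the estrogen receptor. Its parental cells were hormone-starved for 72 h and profiled without estrogen (T0) and 1, 4, 16 and 24 h after addition of 100 nM β-estradiol (E2; T1, T4, T16 and T24). The sixth library came from the tamoxifen-resistant derivative (TamR), which the labels call untreated and which the study's methods describe as kept in 100 nM tamoxifen in phenol-red-free medium with charcoal-stripped serum. TamR therefore differed from T0 in the cells, the drug and, by the study's methods, the serum level and the 72 h starvation step. From T1, T4, T16 and T24 it differed also in the absence of added E2, and these differences cannot be told apart. Every condition had 1 library, so no test between conditions was possible, and whether replicates were pooled before deposit is not stated for T47D. Tethered chromatin capture (TCC, a form of Hi-C with ligation on a solid surface) was used, with HindIII as the restriction enzyme.

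In the nucleus, active and inactive chromatin segregate into compartments, and contacts between chromosomes form mainly within each kind. Compartment A holds gene-rich, early replicating, transcribed chromatin, and compartment B holds gene-poor chromatin, much of it at the nuclear lamina. The first eigenvector of the contact matrix captures this segregation: a positive score marks A and a negative score marks B. Bins with the highest scores are those whose contacts with other chromosomes are most biased towards A. The scores are printed multiplied by 1000 throughout, and within each library their squares sum to nearly the same total, so the size of a score has meaning only beside other scores from the same library. The scores chose the core bins, and the parental levels below describe that choice. GC content, genes, position and the TamR scores took no part in it, except that a TamR score had to exist. No expression was measured in these libraries: a gene below is a gene whose start lies in a bin.

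The core bins differed from most of the genome in their sequence. Their median GC content was 51.1% (95% interval 50.8 to 51.4) against 39.9% over all scored bins, and their median density of CG dinucleotides was 21.0 per kb against 8.20. HindIII sites (AAGCTT, the same on both strands) were fewer, with a median of 18 per core bin and 29 over all bins. The consensus estrogen response element (GGTCANNNTGACC, which matches itself on the opposite strand) occurred in 144 core bins, or 10.9%, against 7.26% of all bins. Such a match is a run of letters and not a measured binding site. Not every gene start in the core was rich in CG: of 3957 coding genes starting there, 64.0% had at least 10 CG dinucleotides in the 200 bases before the start, against 55.5% of 14905 coding genes elsewhere. The stretch below precedes DNAJC5, the first coding gene of the bin at rank 4, and is shown as 1 example of a CG-rich start, which does not stand for the starts of the other highest bins. It is read from GRCh37 on the strand of the gene, with the CG dinucleotides in capitals.
DNAJC5, chr20:62526279-62526478, plus strand: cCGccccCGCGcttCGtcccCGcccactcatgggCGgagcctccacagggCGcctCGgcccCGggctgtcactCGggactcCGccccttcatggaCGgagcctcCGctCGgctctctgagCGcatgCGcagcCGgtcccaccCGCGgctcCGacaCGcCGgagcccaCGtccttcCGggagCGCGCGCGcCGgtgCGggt
DNAJC5 encodes a chaperone of synaptic vesicles. Its stretch was 77.0% GC and held 30 CG dinucleotides, against a median of 14 for the genes of the core and 11 for coding genes elsewhere.

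Core bins were concentrated on the small, gene-rich chromosomes. Chromosome 19 had 188 core bins of 557 scored bins (33.8%, 95% Wilson interval 29.9 to 37.8), chromosome 22 had 103 of 336 (30.7%, 26.0 to 35.8) and chromosome 17 had 197 of 768 (25.7%, 22.7 to 28.9), compared with 5% of all scored bins. Together with chromosome 16, where 90 of 754 bins were core (11.9%), these chromosomes held 43.7% of the core and 9.12% of the scored bins. Adjacent bins share contacts and are not independent, so these intervals are too narrow. Chromosomes 21 (11.1%), 9 (8.41%), 20 (7.37%), 11 (6.79%) and 12 (5.44%) were also above 5%. The large chromosomes 2, 4 and 5 had 1.32%, 1.33% and 0.910%, and chromosome 10 had 10 core bins of 1285 (0.778%). Chromosomes 13 and 18 had none of 955 and 748 bins (Wilson upper bounds of 0.401% and 0.511%, which treat bins as independent). The highest mean score reached by any bin of chromosome 18 was 7.80, and of chromosome 13 it was 10.8, below the lowest core bin at 11.4.

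**Figure D1:**
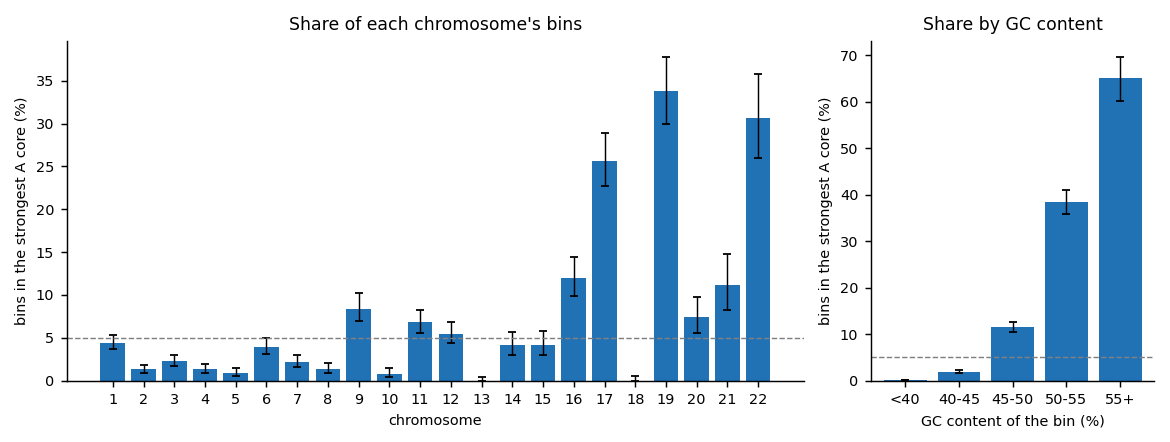
Percent of scored 100 Kb bins that belong to the core, by chromosome (left) and by GC content of the bin (right); error bars are 95% Wilson intervals and the dashed line is 5%. Chromosomes 17, 19 and 22 stand far above the line, chromosomes 13 and 18 have no core bin, and the share climbs with GC content to 65.0% in bins of at least 55% GC.

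GC content separated core from other bins steeply. Of 13524 bins under 40% GC, 6 were core (0.0444%). The share was 1.84% at 40 to 45% GC, 11.5% at 45 to 50%, 38.4% at 50 to 55% and 65.0% (245 of 377 bins) at 55% or more. Chromosomes also differed at high GC content. Among bins of at least 50% GC the core took 26 of 32 on chromosome 21 (81.2%), 67.0% on chromosome 9, 65.6% on chromosome 17 and 63.6% on chromosome 19, but 16.9% on chromosome 2 and 3 of 57 on chromosome 10 (5.26%). None of the 11 and 12 such bins of chromosomes 13 and 18 was core. The 1007 GC-rich bins outside the core had a median mean score of 8.24, and 41 of them (4.07%) were in compartment B. Within the core the mean score and GC content correlated at 0.403 across bins (0.730 over all bins), as a description of bins that share chromosomes.

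The ends of chromosomes were rich in core bins. Of the 1905 scored bins within 5 Mb of an end, 444 were core (23.3%, 21.5 to 25.3), against 880 of 24579 elsewhere (3.58%, 3.36 to 3.82), so that 33.5% of the core lay there. All core bins of chromosomes 4, 5, 8, 14 and 21 (25, 16, 19, 36 and 39 bins) lay within 5 Mb of an end, whereas chromosomes 3, 6, 10 and 15 had none there among their 44, 66, 10 and 33 core bins.

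The core was contiguous. The 1324 bins formed 222 runs of adjacent bins with a median of 3 bins. Of these runs, 57 were single bins and 41 had at least 10 bins, and the latter held 728 bins (54.985% of the core). The longest runs had 39 bins each. That of chromosome 11 (chr11:63600001-67500000, hg19 as for all coordinates here) held 158 coding gene starts, the first of them MARK2, RCOR2, NAA40, COX8A and OTUB1, and its mean score was 15.3 over the parental libraries and 13.5 in TamR. The run at the end of chromosome 21 (chr21:44200001-48100000) held 67 starts, beginning with WDR4, NDUFV3, PKNOX1 and the cystathionine synthase gene CBS, with means of 13.7 and 12.3. Next came chr14:102400001-106000000 with 36 bins and the genes of dynein (DYNC1H1) and the chaperone HSP90AA1 (13.1 and 11.5), chr9:130100001-133100000 with 30 bins (13.9 and 13.4) and chr9:138200001-140700000 with 25 bins at the end of chromosome 9 (15.3 and 14.3). The last of these contained the top of the genome.

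The highest bin was chr9:139700001-139800000, where RABL6, AJM1, PHPT1, MAMDC4, EDF1 and TRAF2 start. EDF1 is a transcriptional coactivator and TRAF2 an adaptor of TNF receptors. Its scores were 17.1, 17.9, 17.5, 17.7 and 20.1 at T0, T1, T4, T16 and T24, and 16.1 in TamR. The TamR score was below all 5 parental scores, yet it ranked 8 in TamR. The second bin, chr9:140000001-140100000, held DPP7, GRIN1 (the obligatory NMDA receptor subunit), ANAPC2 and SSNA1, with 16.8, 18.1, 16.8, 18.8 and 19.7 in the parental libraries and 16.1 in TamR. Rank 3 went to chr16:2000001-2100000 with 14 coding starts, among them NDUFB10 of respiratory complex I, the ribosomal protein gene RPS2 and the tumour suppressor gene TSC2. Its scores were 17.6, 18.1, 17.4, 17.1 and 19.2, and 14.99 in TamR, where it ranked 65. The bin of DNAJC5 and UCKL1 on chromosome 20 had 17.37, 16.995, 17.03, 18.03 and 19.17, and 15.5 in TamR. In each of these 4 bins T24 was the highest library and TamR the lowest.

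The other bins among the 10 highest were on chromosomes 9, 11, 16 and 17, with parental means of 17.4 to 17.6 and TamR scores of 15.003 to 16.7. They held IL17C, CYBA and MVD (chr16:88700001-88800000), NPLOC4, HGS and MRPL12 (chr17:79600001-79700000), the lipocalin genes LCN6, LCN8, LCN10 and LCN15 (chr9:139600001-139700000), LTBP3 and MAP3K11 (chr11:65300001-65400000), PIGQ and RAB40C (chr16:600001-700000), and PYCR1 and RAC3 (chr17:79900001-80000000). CYBA encodes a subunit of NADPH oxidase, MVD an enzyme of the mevalonate pathway, HGS a component of endosomal sorting and PYCR1 an enzyme of proline synthesis. On the other chromosomes with core bins, the top bin ranged from 13.1 on chromosome 10 (NFKB2, PSD, FBXL15 and CUEDC2) to 17.2 on chromosome 6, where the bin chr6:33200001-33300000 held RPS18, TAPBP and DAXX. The bottom of the core lay in a dense part of the distribution: the last members had means of 11.424, 11.422 and 11.421 (bins of ALDH4A1 on chromosome 1, FBXO22 on chromosome 15 and a bin with no coding start on chromosome 9), and the first bins outside had 11.420, 11.419 and 11.418.

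**Figure D2:**
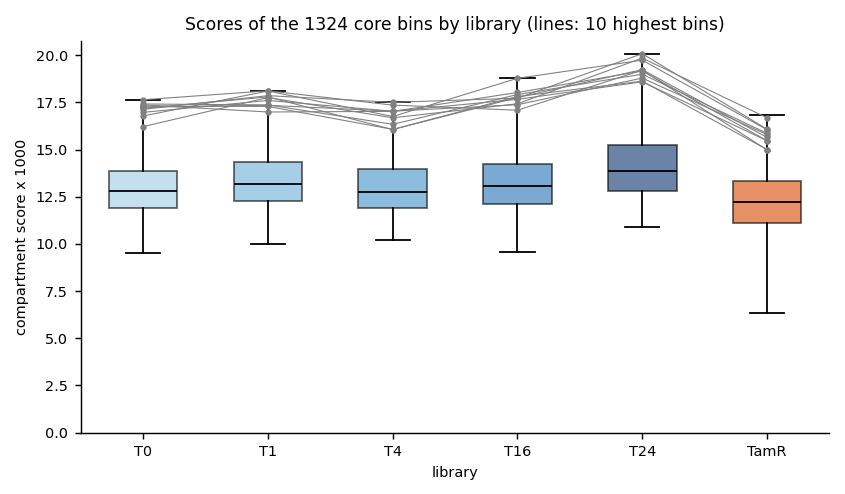
Compartment scores, multiplied by 1000, of the 1324 core bins in each of the 6 libraries; boxes show the median and quartiles, whiskers the lowest and highest bin, and grey lines the 10 highest bins. The medians run from 12.7 in T4 to 13.9 in T24 and are 12.2 in TamR, and all 10 lines drop from T24 to TamR.

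The core was dense in coding genes. The median was 2 coding gene starts per core bin against 0 over all bins, and 22.1% of core bins had at least 5 against 2.10%. In all, 3957 of 18862 autosomal coding gene starts (21.0%) fell in the core. The share of bins in the core was 0.963% without a coding start, 12.1% with 2 starts, 50.3% with 5 to 7 and 61.1% with 8 or more. Even so, 158 core bins (11.9%) had no coding start, and 25 (1.89%) no gene start of any type. Other classes of gene were less frequent in the core: 11.1% of lncRNA genes, 10.9% of miRNA genes, 5.05% of processed pseudogenes, and 0 of the 126 immunoglobulin and 95 T cell receptor variable genes.

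Several families of basic cell functions had shares in the core above the 21.0% of all coding starts. The families were defined by gene symbol, so that a few genes such as PSMC3IP and TUBGCP6 are counted by name alone, and since many members share a bin their intervals are too narrow. Of the 12 subunit genes of RNA polymerase II, 6 started in core bins, among them POLR2A with the catalytic subunit (parental mean 16.2, TamR 14.6) and POLR2L (15.8 and 11.8). All 6 had TamR scores below every parental score, against 64.3% of all core bins, and 3 of the 6 after rank mapping, against 42.7%. Rank mapping places all 6 libraries on the same distribution of scores. Cytosolic ribosomal proteins had 31 of 80 (38.8%, 28.8 to 49.7), including RPS2 (17.9 and 14.99), RPS18 (17.2 and 15.5), RPL18 (16.7 and 14.9) and RPLP0 (13.7 and 11.8). Proteasome subunits had 15 of 39 (38.5%, 24.9 to 54.1) and translation initiation factors 17 of 52 (32.7%, 21.5 to 46.2). Mitochondrial ribosomal proteins had 25 of 78 (32.1%, 22.7 to 43.0) and Mediator subunits 9 of 28 (32.1%, 17.9 to 50.7), an interval that includes the 21.0%. Others were near or below the background: vacuolar ATPase subunits had 6 of 24 (25%), ubiquitin-conjugating enzymes 8 of 35 (22.9%), NADH dehydrogenase subunits 8 of 37 (21.6%) and ubiquitin-specific proteases 6 of 46 (13.04%). Of the 9 Mediator genes in the core, 4 were below every parental score in TamR, and 2 after rank mapping. The Mediator genes MED1 and MED24 on chromosome 17 and MED8 on chromosome 1 had higher scores in TamR (14.7, 15.2 and 14.5) than their parental means (13.8, 14.5 and 12.8).

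Tubulins had 12 of 28 starts in the core (42.9%), of which TUBA1A, TUBA1B and TUBA1C shared a bin on chromosome 12. Keratins and keratin-associated proteins, the filament and hair proteins of epithelia, had 62 of 149 (41.6%), but these fell in only 14 bins, with 35 genes on chromosome 17 and 16 on chromosome 21. Of 55 genes whose symbol is KRT with a number, 33 were in the core, in 9 bins. KRT8, KRT18 and KRT19 of luminal epithelium were included, but so were KRT14, KRT15, KRT16 and KRT17, and KRT7 was not. The HLA genes had 10 of 19, in 6 bins, and the fucosyltransferases (FUT) 7 of 11, in 5 bins. These name stems were picked for their high shares among 262 stems with at least 10 starts, of which 33 had none in the core.

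Other families had few or no genes in the core. Olfactory receptors had 3 of 403 starts in the core (0.744%, 0.253 to 2.17): OR1F1 and OR2C1 on chromosome 16 and OR10H1 on chromosome 19. Clustered protocadherins had 0 of 53, HOX genes 0 of 39, chemokines 1 of 39 (CXCL16) and cadherins 1 of 23 (CDH15). Zinc finger genes named ZNF had 63 of 498 (12.7%, 10.01 to 15.9), below the share of all coding genes although many lie on chromosome 19, where 14 of the 63 were; 18 others were on chromosome 16. Collagens had 8 of 42 (19.05%), potassium channels 14 of 93 (15.1%) and cytochrome P450 genes 8 of 57 (14.04%). Solute carriers (20.5%) and SOX genes (22.2%) were near the background.

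**Figure D3:**
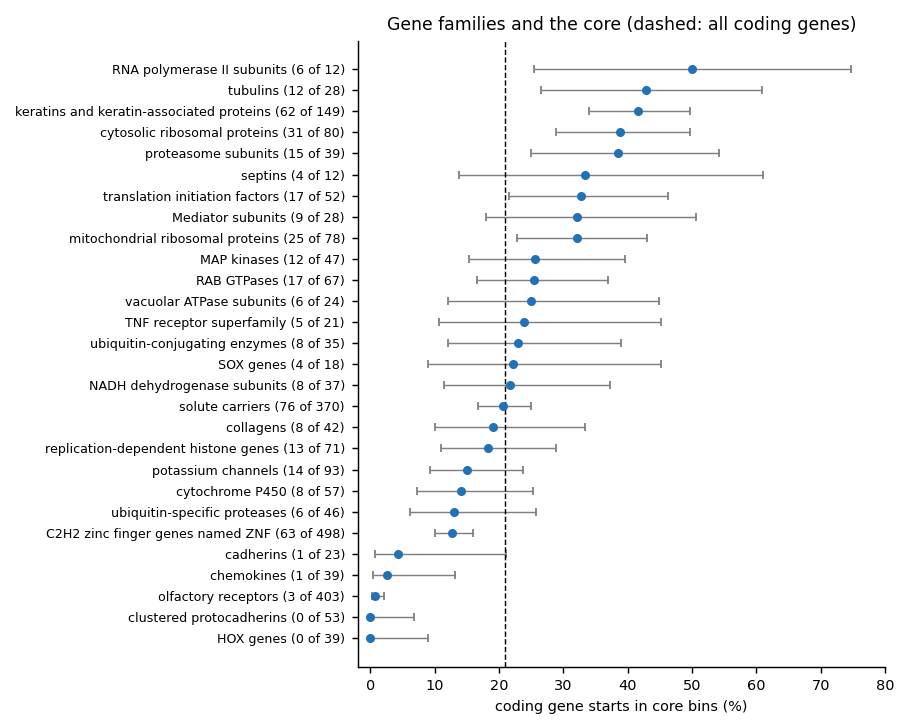
Percent of coding gene starts of each family that lie in core bins, with 95% Wilson intervals; the number in the core of the number in the family is given after each name, and the dashed line is the 21.0% of all coding genes. RNA polymerase II subunits are at the top with 6 of 12, and HOX genes and clustered protocadherins at 0.

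Of 22 genes of coregulators of the receptor, 9 were core (40.9%), against 21.0% of all coding gene starts. They were KMT2D, PELP1, GPS2, MED1, SAFB, SAFB2, CARM1, PRMT1 and DDX17, of which SAFB and SAFB2 share a bin. PRMT1, an arginine methyltransferase, scored 15.3, 16.8, 15.2, 15.4 and 17.005 in the parental libraries and 15.2 in TamR, within the parental range. PELP1, a scaffold of the receptor, scored 14.18, 14.98, 13.69, 13.88 and 15.06, and 11.76 in TamR, below all of them. Of 24 estrogen response genes, 5 were core (20.8%), no more than the 21.0% of all coding gene starts: CTSD, RARA, IGFBP4, KRT13 and NHERF1. CTSD, the cathepsin D gene, had a parental mean of 13.2 and a TamR score of 10.7. The bins of GREB1 (5.12) and PGR (0.851) were far from the core, and CCND1 (11.4) was just outside it at rank 1330.

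Of 11 luminal transcription factors only SPDEF (12.7, TamR 11.6) was core, or 9.09%, against 21.0% of all coding gene starts. ESR1, which encodes the estrogen receptor, had a mean of 3.96, GATA3 1.30 and FOXA1 1.36. Of 18 genes linked to endocrine resistance, 4 were core (22.2%, near the share of all coding gene starts), ERBB2, ERBB3 and AKT1 among them. AKT1 lay in the top bin of chromosome 14 (15.3, TamR 13.2). Of 18 housekeeping genes, 6 were core (33.3%), ACTB, GAPDH, POLR2A, RPLP0 and TUBB among them. Of 18 neuronal genes only GRIN1 was core (5.56%). It lies in the second highest bin of the genome, while the median of the neuronal list was -5.73.

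Each parental library had most core bins in its own top 5%, which the choice of bins by these libraries favours. In their own top 5%, T0 had 1224 of the 1324 core bins (92.4%), T1 1251, T4 1256, T16 1257 and T24 1250, and 1083 bins (81.8%) were there in all 5. Correlations between parental libraries were 0.859 to 0.924 across core bins and 0.986 to 0.997 over all bins. The median range over the 5 libraries was 1.54 in the core and 1.07 over all bins. Since those libraries chose the bins, these values are descriptions. As deposited, T24 was the highest of the 5 libraries in 999 core bins (75.5%; 29.5% of all bins) and T0 the lowest in 544 (41.1%; 23.2% of all bins). T24 also had the longest upper tail, with 20.1 in its highest bin against 17.5 to 18.8 in the other parental libraries. When each library was mapped by rank onto the same distribution, T24 was the highest in 18.7% of core bins, against 24.0% of all bins. T0 was then the lowest in 24.6% of core bins (24.0% of all bins) and the highest in 26.6% (28.8% of all bins). The order of the core bins therefore showed no such lead of T24.

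The widest parental ranges were in bins on chromosomes 1, 19 and 20. The bin of SLC35E2B and the kinase gene CDK11A (chr1:1600001-1700000) scored 12.1, 14.7, 13.1, 13.6 and 16.7 from T0 to T24, and 13.1 in TamR. That of FZR1, an activator of the anaphase-promoting complex, and HMG20B (chr19:3500001-3600000) scored 11.995, 15.11, 14.69, 15.06 and 16.58, and 14.66 in TamR. Further bins were those of WDTC1, of ISG15, HES4 and AGRN, and of GATA5 and RBBP8NL, with ranges of 3.93 to 4.13. In all 5 of these bins T24 was the highest library, and in 4 of them T0 the lowest, the ISG15 bin being lowest at T4. The narrowest range belonged to the bin of UBR4, EMC1 and MRTO4 on chromosome 1, with 11.6 in T0 and T1 and 11.7 in T4, T16 and T24, a range of 0.0997, and 11.6 in TamR. The bin of ERBB3 and PA2G4 on chromosome 12 (range 0.352) and that of CCND3 and TAF8 on chromosome 6 (range 0.356) were also among the 5 narrowest, with TamR scores of 10.7 and 10.2 below their parental scores.

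In TamR no core bin was in compartment B: 0 of 1324 had a negative score, against 51.7% of all scored bins, and the lowest TamR score was 6.36. The Wilson upper bound of 0.289% treats bins as independent. Every core bin had a parental mean of at least 11.4, so the choice of bins by itself favours a low count. The order of the bins differed more than their sign. Of the core bins, 1056 (79.8%, 77.5 to 81.8) were in the top 5% of TamR, and 941 (71.1%) in the top 5% of all 6 libraries. Because the parental libraries chose the core, the fair comparison takes members chosen without a parental library and reads that library and TamR over the same members. The left-out library then had 90.6% of them in its top 5% for T0, 93.1% for T1, 93.7% for T4, 93.6% for T16 and 92.7% for T24, whereas TamR had 79.7 to 80.1%. TamR was thus below each of the 5 left-out libraries, and the lowest of these was T0. Across core bins TamR correlated with the parental libraries at 0.695 to 0.726, and over all bins at 0.897 to 0.904. A correlation within the core is lowered by its narrow span of scores.

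In score, TamR was the lowest library in most of the core. The median over core bins was 12.8, 13.2, 12.7, 13.0 and 13.9 at T0, T1, T4, T16 and T24, and 12.2 in TamR. TamR was below the lowest of the 5 parental scores in 851 bins (64.3%, 61.7 to 66.8), against 43.7% of all scored bins, and above the highest in 55 (4.15%, 3.21 to 5.37), against 35.2% of all bins. The median difference from the parental mean was -1.12 (-1.20 to -1.07). Much of this moved with the scale of the library. With all libraries mapped by rank onto the same distribution, TamR was below the parental scores in 566 core bins (42.7%) and above them in 281 (21.2%), with a median difference of -0.311, and over all bins the shares were 42.9% and 36.4%. On that scale the share below in the core was thus near that of the genome. By comparison, a parental library left out of the choice, on the same rank scale, was below the other 4 in 16.8 to 25.6% of members and above them in 16.8 to 24.5%, and TamR was below the same 4 in 44.6 to 45.9% and above them in 22.7 to 24.2%.

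The chromosomes differed in how their core fared in TamR. On chromosomes 5 and 8 all 16 and 19 core bins stayed in the top 5% of TamR, on chromosome 3 it was 41 of 44 (93.2%), on chromosome 19 173 of 188 (92.0%) and on chromosome 9 84 of 92 (91.3%). On chromosome 10 it was 4 of 10, on chromosome 1 56 of 98 (57.1%), on chromosome 15 60.6% and on chromosome 12 63.4%. The median differences ran from -0.503 on chromosome 3 to -2.06 on chromosome 10, with -1.83 on chromosome 11 and -1.80 on chromosome 16. Over the scored bins outside the core they were 0.178, -0.157, -0.128 and 0.126 on chromosomes 3, 10, 11 and 16. After rank mapping the chromosomes still differed. TamR was then below the parental scores in 81.8% of the core bins of chromosome 15, 75.3% of chromosome 11 and 72.2% of chromosome 14, and in 11.4% of chromosome 3, 12% of chromosome 4 and 21.1% of chromosome 8. Chromosome 19 had a median difference of 0.115 on that scale and chromosome 17 of -0.142. As deposited, the median difference on chromosome 19 was -0.728 in core bins and 2.42 in its other bins. On the deposited scale TamR was below the parental scores in 97.0%, 89.9% and 91.7% of core bins on chromosomes 15, 11 and 14. Over all bins of these chromosomes the shares were 52.8%, 45.8% and 43.7%. On chromosomes 3, 4 and 8 they were 34.1%, 32% and 42.1% in the core and 36.8%, 43.6% and 53.0% over all bins. Core bins of a chromosome lie in few runs, so each of these shares rests on fewer independent stretches than bins.

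**Figure D4:**
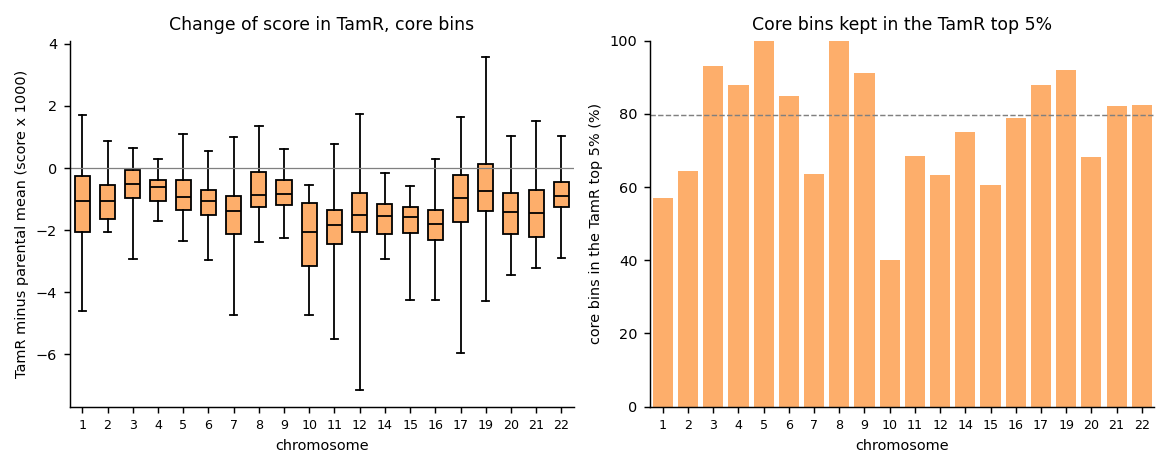
TamR score minus parental mean for the core bins of each chromosome (left; boxes show the median and quartiles, whiskers the lowest and highest bin) and percent of core bins that are also in the top 5% of TamR (right; dashed line, 79.8% of all core bins). Chromosomes 13 and 18 have no core bin and are left out; chromosome 10 has the lowest median and the lowest share kept, and chromosome 19 has the widest spread above 0.

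The 268 core bins that left the top 5% of TamR mostly stayed close to it: their median TamR rank was 1717.5, and 246 of them (91.8%) were within the top 10%. The most negative differences were found on chromosomes 11, 12 and 17. The bin chr12:6700001-6800000, with CHD4 (the ATPase of the NuRD complex), LPAR5, ACRBP, ING4 and ZNF384, scored 12.7, 13.9, 13.9, 14.5 and 16.1 at T0, T1, T4, T16 and T24, and 7.06 in TamR. It ranked 346 by the parental mean and 3878 in TamR. The bin of ENO2, ATN1, PTPN6, EMG1 and PHB2, a repressor of the estrogen receptor (chr12:7000001-7100000), scored 12.1, 13.3, 13.2, 14.1 and 14.4, and 7.65 in TamR. In the bin of GNB3, USP5 and the glycolytic gene TPI1 (chr12:6900001-7000000) the values were 13.1, 13.4, 13.1, 14.8 and 14.3, and 8.40. All 3 bins belong to the same run, so they are not separate observations.

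That run, chr12:6300001-7200000, had 9 core bins and 42 coding starts, CD9, TNFRSF1A, SCNN1A, LTBR and GAPDH among them. Its mean was 12.2, 12.9, 13.1, 13.9 and 14.4 from T0 to T24 and 9.09 in TamR. All 9 bins were below every parental score and 1, that of GAPDH, was in the top 5% of TamR. This run had the most negative mean difference of the 94 runs with at least 5 bins, on the deposited scale (-4.21) and after rank mapping (-3.89). In the bins 1.4 to 0.6 Mb before the CHD4 bin, TamR was instead above all 5 parental scores: at 0.8 Mb before it the parental scores were 2.53 to 4.66 and the TamR score 5.72. The 2 bins after the run were below every parental score too, and so were, farther off, the bin 1.5 Mb before the CHD4 bin and those 1.2 and 1.3 Mb after it, with TamR scores of 0.929, 3.89 and 5.32.

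Outside chromosome 12, the bin chr17:7400001-7500000 with the cytokine genes TNFSF12 and TNFSF13, SENP3, the helicase gene EIF4A1 and the macrophage marker CD68 scored 11.4, 12.6, 13.6, 13.1 and 13.1, and 6.80 in TamR. The other bins of its run had smaller differences. The POLR2A bin before it scored 14.6 in TamR against a parental mean of 16.2. Of the 14 bins of the run, 12 were below every parental score and 11 were in the top 5% of TamR, and the mean difference of the run was -2.33. The bin of PCSK7, RNF214, CEP164 and the secretase gene BACE1 (chr11:117100001-117200000) scored 11.70, 12.32, 12.11, 11.20 and 12.04, and 6.36 in TamR, the lowest TamR score of the core. Of the 94 runs of at least 5 bins, 18 had every bin below every parental score (9 after rank mapping) and 3 kept no bin in the top 5% of TamR. Those were chr1:1900001-2400000 with PRKCZ and SKI (mean 12.3, TamR 9.34), chr1:155600001-156300000 with DAP3, SYT11 and RIT1 (12.3 and 9.85) and chr11:72100001-72600000 with CLPB, PDE2A and STARD10 (12.2 and 10.3).

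Higher scores in TamR were fewer and the largest lay on chromosome 19. The bin chr19:2700001-2800000, with GNG7, DIRAS1, SLC39A3, SGTA and THOP1, scored 11.31, 12.33, 11.55, 12.08 and 11.98 in the parental libraries and 15.41 in TamR. It ranked 1137 by the parental mean and 45 in TamR. GNG7 encodes a G protein subunit and THOP1 a metalloendopeptidase. The next bin, with ZNF554, ZNF555 and ZNF556, scored 12.6, 11.8, 11.4, 11.9 and 11.7, and 14.8 in TamR. The bin of MLLT1, a reader of acylated histones (chr19:6200001-6300000), scored 11.78, 13.21, 12.10, 13.15 and 13.41, and 14.98. On chromosome 12 the bin of AAAS, SP7 and the transcription factor gene SP1 (chr12:53700001-53800000) scored 11.7 to 12.2 in the parental libraries and 13.7 in TamR. In each of these bins TamR lay above all 5 parental scores.

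Only 4 of the 94 runs of at least 5 bins had a higher mean in TamR than in the parental libraries as deposited, and they were also the 4 highest after rank mapping, when 32 of the 94 runs had a higher mean in TamR. On chromosome 19 these were chr19:2600001-3400000 (12.3 and 13.9, 8 bins) and chr19:5800001-6400000 with NRTN, FUT3, FUT5 and FUT6 (12.7 and 13.7, 6 bins). On chromosome 17 they were the neighbouring runs chr17:36500001-37200000 (13.5 and 13.8, 7 bins) and chr17:37300001-39200000 (13.5 and 13.9, 19 bins), the second of which contains MED1, ERBB2, RARA and IGFBP4. All 7 and 19 bins of the chromosome 17 runs were in the top 5% of TamR. These runs were picked by their TamR difference and are given as a description. ERBB2, the receptor tyrosine kinase gene of this region, scored 16.1, 15.2, 15.5, 14.9 and 16.2, and 16.4 in TamR, a difference of 0.806 from the parental mean. Its TamR score exceeded the highest parental score by little, while the bin ranked 134 by the parental mean and 6 in TamR. As run means, both chromosome 17 runs had 14.2 at T24, so that TamR was within the parental range as deposited, and after rank mapping it was above all parental scores in 7 of 7 and 15 of 19 bins.

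**Figure D5:**
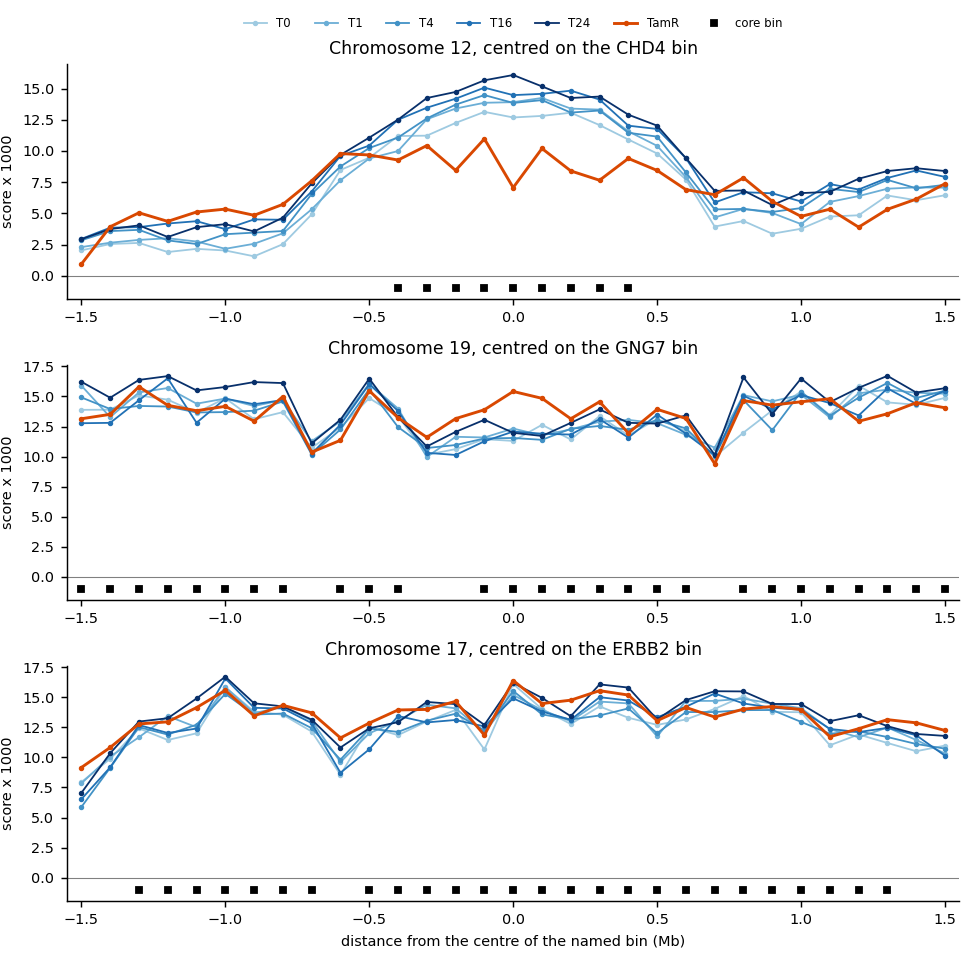
Compartment scores, multiplied by 1000, of the 6 libraries in the bins up to 1.5 Mb on each side of the bins of CHD4, GNG7 and ERBB2; black squares mark core bins and the x axis is the distance from the centre of the named bin in Mb. TamR runs below the parental lines across the core run around CHD4, above them at GNG7, and close to them around ERBB2, above or below all of them in some bins.

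Of the 24 estrogen response genes, 17 lay in bins where TamR was below every parental score (15 after rank mapping). Of the 11 luminal transcription factors 8 did (8 after rank mapping). Over all scored bins the share was 43.7%, and 42.9% after rank mapping. A high share was not particular to these lists: 14 of 18 housekeeping genes did so (10 after rank mapping). Of 22 coregulators 13 did (10), of 18 genes linked to endocrine resistance 7 (8) and of 18 neuronal genes 6 (3). Of the 9 coregulators in the core, 4 were below all parental scores, against 64.3% of core bins, and 2 after rank mapping. As deposited, KMT2D, PELP1, GPS2 and CARM1 were below, and MED1 was above all parental scores. SAFB, SAFB2, PRMT1 and DDX17 were within the parental range. Of the 5 estrogen response genes in the core, CTSD, IGFBP4, KRT13 and NHERF1 were below and RARA was within. After rank mapping 2 of these 5 were below. The housekeeping genes ACTB (11.4 and 8.44), GAPDH, POLR2A, RPLP0 and TUBB were below, as were all 6 housekeeping genes of the core, and 4 of the 6 after rank mapping, where the share of all core bins was 42.7%. These are positions in a ranking of contacts, and whether the genes changed in expression was not tested.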

How the data were processed

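TCC libraries of T47D cells were analysed, 5 parental and 1 TamR, with 1 library per condition. Each deposited file held 1 score per 100 Kb bin of hg19 (30376 bins), the first eigenvector that the authors computed with HiCLib from the iteratively corrected contacts between chromosomes. A score of 0 marks a bin without a value, and 2339 of 28823 autosomal bins lacked a score in at least 1 library and were left out. Low-coverage bins had been removed upstream. The files hold no contact counts, so the sequencing depth of the bins cannot be read from them and no counting interval was computed. Squared scores sum to 0.998 to 0.999 per library, so sizes are relative within a library. For this reason ranks and a mapping of every library by rank onto the mean parental distribution were set beside the deposited scale.

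Core bins were the highest by mean parental score. GC content, motifs and sequences came from GRCh37, whose chromosome lengths equal the last bin ends, and gene starts from GENCODE. Shares have 95% Wilson intervals and medians have binomial order-statistic intervals, which treat bins as independent. No p-value between conditions was computed. Named bins were the 10 highest, the highest of each chromosome, the 5 most negative and most positive TamR differences, the 5 widest and narrowest ranges and the 3 on each side of the threshold, with the 5 longest runs. Families and gene lists came from fixed symbol lists. The members, families and lists were chosen with earlier results of these data known. Python 3.11.15, numpy 2.4.6, pandas 2.3.3, scipy 1.17.1 and matplotlib 3.10.9 were used, and the scripts were tested on simulated data. Some genes and sequences are not reported here.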

Additional observations from a re-analysis of the deposited data

How the results depend on the processing

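In all, 200 values were recomputed under other settings, of which 160 stayed within the interval or limit of the value reported and 40 moved beyond it. With T1, T4, T16 or T24 left out of the choice of members, with the median or the mean percentile rank in place of the mean score, with scores divided by the standard deviation of their library, with chromosome X, or with bins scored in the parental libraries whatever TamR held, every result stayed within it. With T0 left out, the lowest share of members kept by a parental library that took no part in their choice was 93.1% in place of 90.6%. Of the results, only the median TamR difference can take either sign, and it stayed negative under every setting run. Mapping TamR alone by rank cannot change results that rest on the parental libraries, so some of the 160 were fixed in advance.

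The scale of the scores had the largest effect on TamR. With TamR mapped by rank, the share below the lowest parental score was 37.2%, the share above the highest 15.3% and the median difference -0.356. With every library mapped by rank and the members chosen again, an alternative added after seeing the data, these were 42.8%, 21.2% and -0.314, the median parental range was 1.06, T24 was highest in 18.5% and T0 lowest in 24.3%. A threshold at the top 2% gave 72.0% below, 0.945% above, a median difference of -1.35, 72.8% kept in the TamR top 2%, 53.1% on chromosomes 16, 17, 19 and 22, 52.7% GC, 10.9% of coding starts, 43.9% near chromosome ends, a range of 1.79 and 85.6% kept by a left-out parental library. The top 10% gave 58.4%, 10.9%, -0.936, 84.3%, 36.2%, 49.5% GC, 34.3%, 24.6%, 1.29 and 93.3%. Blocks of 500 Kb gave 74.0% below, 82.6% kept, 50.5% GC, 20.2% of coding starts, 79 runs, a range of 1.24 and 93.2%. With genes of every type, the median was 5 starts per bin and 12.9% of starts were in the core, and within 10 Mb of an end lay 44.7% of the core. No core bin was in compartment B in TamR under any setting run. No paired analysis was possible because no condition had a second library.

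Depth is unknown from these files, so whether the TamR scores are less precise than the parental scores was not tested. Neighbouring bins are not independent, and the threshold cuts a dense part of the distribution, which bears on every share kept near it.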

Other observations

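The 268 bins that were in the top 5% of TamR but outside the core are described here; they were chosen by their TamR scores, so their TamR values are no finding. Their median parental rank was 1789, and 223 of them (83.2%) were within the parental top 10%. Chromosome 19 had 84 of them (31.3%), chromosome 1 had 40, chromosome 12 had 28 and chromosome 17 had 21. The 5 of these bins with the lowest parental scores were all on chromosome 19. The bin of NLRP8 and NLRP13, genes of the NLR family (chr19:56400001-56500000), scored -3.78, -3.33, -3.07, -2.51 and -1.48 at T0, T1, T4, T16 and T24, which is compartment B, and 11.4 in TamR. The bin of the zinc finger genes ZNF264, ZNF460 and ZNF805 with the kinase gene AURKC (chr19:57700001-57800000) scored 0.156, 0.251, -0.558, 0.603 and 1.68, and 12 in TamR. Also on chromosome 19, the run chr19:58400001-59100000 with ZNF417, ZNF418 and ZNF606 had a mean of 5.40 in the parental libraries and 12.5 in TamR, and chr19:54600001-55200000 with OSCAR, PRPF31 and CNOT3 had 6.40 and 12.4. Over all ZNF genes the median score was 5.01 in the parental mean and 8.97 in TamR.

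Longer runs of new bins were found beside the core on chromosomes 12 and 21. The run chr21:43300001-44200000, directly before the core run of chromosome 21, holds the estrogen-responsive trefoil factor genes TFF1, TFF2 and TFF3 with ABCG1 and had means of 10.3 and 12.3. The TFF1 bin scored 9.82, 10.8, 10.3, 10.6 and 10.6 in the parental libraries and 11.2 in TamR. The run chr12:52600001-53200000, with the keratin genes KRT7, KRT81 and KRT86, had means of 9.84 and 11.8, and chr12:2800001-3500000, with FOXM1, FKBP4 and TEAD4, had 9.56 and 11.95. The differences between libraries were not tested.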
